A study of Mus musculus with 6 samples.

Results

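The mitochondrial ribosomal protein genes were taken as all genes whose annotated symbol starts with Mrpl (large subunit) or Mrps (small subunit) followed by a digit. Of 18193 genes with a probe set of their own on the arrays, 76 met this rule, 47 Mrpl and 29 Mrps. Each was read from its brightest probe set by the mean over 6 arrays. All 76 lay above the filter on dim genes that left 10916 genes for testing, so no member dropped out through a low signal. Mrpl30 and Mrpl53 have probe sets that are shared with another gene and were not analysed here.

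RNA came from the interleukin 3-dependent mouse line Ba/F3, described as pro-B, in which a retroviral Tet-on system had placed NCOR1-LYN under the control of doxycycline. NCOR1-LYN joins parts of a nuclear corepressor and of a SRC family tyrosine kinase. The 3 control cultures carried the construct and were not induced, the 3 NCOR1-LYN cultures received doxycycline, and each culture gave 1 Affymetrix array. Drug and fusion protein went together in all NCOR1-LYN cultures and cannot be told apart, and the dose and the duration of treatment were not given in the sources used here. How far the triplicate cultures were separate is not stated, and p-values here reflect only how these arrays vary, which may be technical. The number of arrays limits the precision.

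Median signals of the arrays ran from 54.84 to 61.89 after the authors' scaling. Replicate 1 of both groups lay apart from the other 4 arrays on the first principal component, which held 58.1% of the variance. Of 10 pro-B markers on the arrays only Cd79b stood well above the filter in all arrays (403 to 577), while Pax5 and Igll1 passed it on their mean with signals of 7.65 to 125 and 13.9 to 178, and Cd79a, Ebf1, Vpreb1, Rag1, Rag2, Dntt and Blnk stayed below it. Of 6 markers of interleukin 3-dependent blood cells 4 passed the filter, namely Ptprc, Csf2rb, Csf2rb2 and Il3ra (403 to 727), while Kit (4.26 to 30.5) and Cd34 (1.19 to 37.6) stayed below it. Summed signals of the 6 T and NK cell markers ran from 149 to 206 in controls and 128 to 144 with NCOR1-LYN, and those of the 6 fibroblast markers from 107 to 220 and 107 to 156. Of these markers Cd8a (54.1 to 98) and Col1a2 (4.08 to 89.5) passed the filter on their mean, and the others stayed below it. The part of other cell types in the results was not tested.

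Mitochondrial ribosomes translate the few respiratory chain and ATP synthase subunits that mitochondrial DNA encodes. Their RNAs are mitochondrial, but all their proteins are encoded in the nucleus, made in the cytosol and imported. Many have a bacterial homologue and others are found in mitochondria alone. Tetracyclines such as doxycycline bind the small subunit of bacterial ribosomes and can also inhibit mitochondrial translation. Known activators of nuclear genes for mitochondrial proteins include NRF1, the ETS family factor GABP and YY1.

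The promoters of the members were searched for short sequences that the rule did not use. RefSeq promoters (GRCm38.p6, 250 bases before to 50 after each start) were matched by symbol for 67 of the 76 members, which have 73 promoters. The letters searched on both strands were GCGCA, any base and GCGC (NRF1), CCGGAAG (ETS family), AAGATGGCG (YY1) and, as a contrast, TATAAA (the letters of the TATA box, at any place in the window), none of which lies within another. The NRF1 letters were found in 12 member promoters (16.4%, against 4.6% of all 32851 promoters), CCGGAAG in 25 (34.2% against 8.86%) and AAGATGGCG in 8 (11% against 1.4%). At least 1 of these 3 was found in 39 member promoters (53.4% against 13.6%), and the other 34 held none of them. Between subunits, CCGGAAG stood in 30.4% of the Mrpl and 40.7% of the Mrps promoters, and the NRF1 letters in 19.6 and 11.1%. TATAAA was found in 5 member promoters (6.85% against 13.6%), at 68 to 190 bases before the start, so these are not shares of promoters with a TATA box. These are matches of letters, not measured binding sites, and the shares were not tested. All promoters include those of genes with little or no signal here, and shares among expressed genes or like families were not computed.

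The 150 bases before the start are printed for 5 members, 5′ to 3′ on the gene's strand, with the matches in capitals. Mrpl16 (chr19:11770265-11770414, plus strand) had the lowest fold change of all members, and passed as lower with a replicate block but not without it. Mrps10 (chr17:47369047-47369196, plus strand) and Mrpl47 (chr3:32736756-32736905, minus strand) had the highest fold changes of their subunits. Mrpl45 (chr11:97315566-97315715, plus strand) and Mrpl52 (chr14:54426759-54426908, plus strand) show the NRF1 and the ETS letters in members whose groups did not overlap.
Mrpl16: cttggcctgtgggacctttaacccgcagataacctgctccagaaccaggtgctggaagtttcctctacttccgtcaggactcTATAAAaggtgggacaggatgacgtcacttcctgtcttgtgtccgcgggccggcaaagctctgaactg
Mrps10: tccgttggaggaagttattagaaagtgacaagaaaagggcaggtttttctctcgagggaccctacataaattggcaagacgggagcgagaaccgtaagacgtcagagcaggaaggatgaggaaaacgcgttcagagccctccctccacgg
Mrpl47: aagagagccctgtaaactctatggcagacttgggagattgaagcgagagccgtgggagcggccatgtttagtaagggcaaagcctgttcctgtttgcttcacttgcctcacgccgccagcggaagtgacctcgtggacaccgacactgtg
Mrpl45: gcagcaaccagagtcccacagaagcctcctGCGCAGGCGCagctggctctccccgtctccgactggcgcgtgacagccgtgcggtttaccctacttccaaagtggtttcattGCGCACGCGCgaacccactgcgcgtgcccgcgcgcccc
Mrpl52: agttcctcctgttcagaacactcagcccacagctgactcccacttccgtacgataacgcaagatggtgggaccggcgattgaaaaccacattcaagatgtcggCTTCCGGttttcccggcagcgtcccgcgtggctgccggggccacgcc
Mrpl16 holds TATAAA, which begins 68 bases before its start, and none of the other 3 sets of letters in its whole promoter. Mrpl45 holds the NRF1 letters at 120 and 38 bases before its start, and Mrpl52 the ETS letters at 47 bases before it. The stretches of Mrps10 and Mrpl47 hold none of the 4. No match says only that these letters are not in this window.

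The comparison of NCOR1-LYN with control cultures asked whether these genes changed with induction of the fusion by doxycycline. As a family they changed little: 1 gene of the large subunit, Mrpl16, was lower by 34.3%, and 71 of 76 members (93.4%, against 80.4% of all genes tested) had a log2 fold change under 0.25 in size. Log2 fold changes here are differences of means of log2(signal + 64), NCOR1-LYN minus control. Over all members they ran from −0.60 (Mrpl16) to 0.40 (Mrps10), and 55 of 76 lay above 0 (72.4%, against 47.2% of all genes). The median was 0.06, with quartiles of −0.01 and 0.15, against a median of −0.01 and quartiles of −0.14 and 0.11 for the 10916 genes.

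In limma with Benjamini-Hochberg adjustment over the 10916 genes and a threshold of 0.05, 0 members passed without a replicate block, where 0.0824% of all genes were called (0.055% higher and 0.0275% lower), and the lowest adjusted p of a member was 0.493. With the replicate number as a block, 1 member passed as lower and 0 as higher, where 0.824% of all genes were called (0.559% lower and 0.266% higher). At an unadjusted p under 0.05, 1 member stood out without the block (1.32%, against 4.75% of all genes) and 2 with it (2.63% against 11.3%). The 95% interval of the fold change, from the limma fit without the block, lay within a 2-fold change either way for 75 of 76 members (98.7%, against 90.7% of all genes). The exception was Mrps28, with an interval from −0.43 to 1.04. For 60 members (78.9%, against 53.6%) it lay within a 1.5-fold change. Members were brighter than most genes, with a median mean signal of 2208 against 742, and their median standard error was 0.14 against 0.18.

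**Figure D1:**
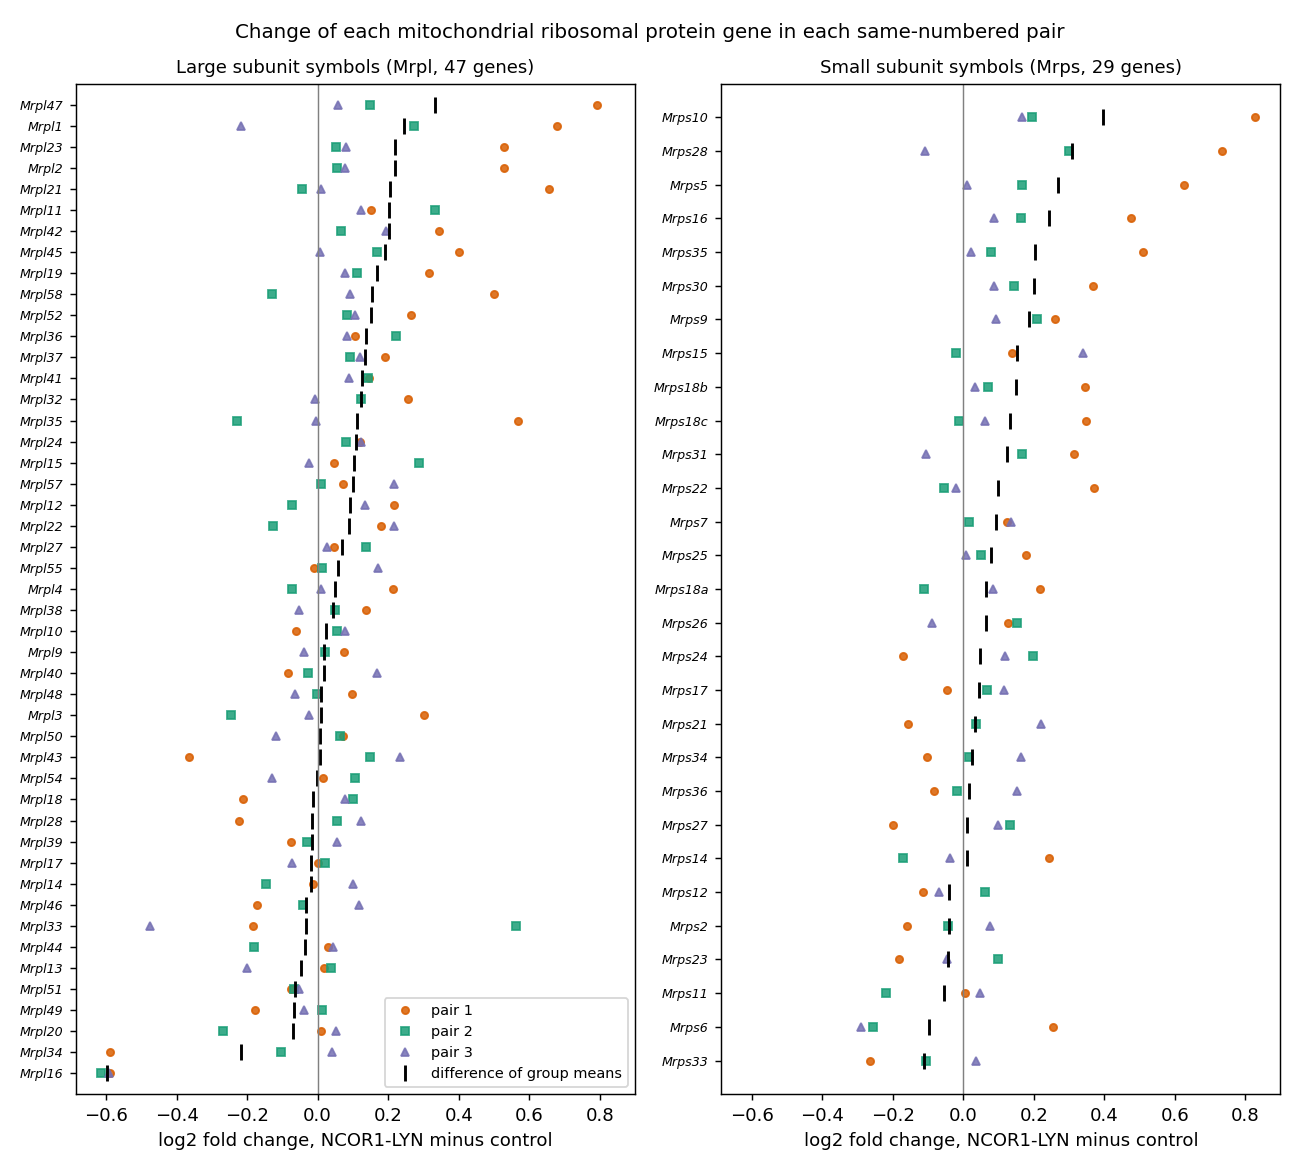
Log2 fold change of each mitochondrial ribosomal protein gene (rows) in each same-numbered pair of arrays (coloured points) and as the difference of group means (black ticks), Mrpl on the left and Mrps on the right. Mrpl16 lies at −0.59 to −0.61 in all 3 pairs, while most other members lie near 0 in pairs 2 and 3 and spread more widely in pair 1.

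Mrpl16 encodes the large subunit protein whose bacterial counterpart sits near the A-site tRNA and the peptidyl transferase centre. Its signals were 5070, 6234 and 6392 in control replicates 1 to 3 and 3346, 4051 and 4220 with NCOR1-LYN. Every NCOR1-LYN array lay below every control array, and within each group replicate 1 was the lowest. The means were 5898 ± 722 and 3872 ± 463 (SD, n = 3), and the drop within the pairs was 34, 35 and 34%. The log2 fold change was −0.60, with SE 0.15 and an adjusted p of 0.493 in limma without the block. With the replicate block Mrpl16 fell, with SE 0.09 and an adjusted p of 0.0359 in limma. Leaving out both replicate 1 arrays gave −0.60 and an adjusted p of 3.02e-04 in limma, and Mrpl16 was the 1 member called there, where 6.78% of all genes passed (3.16% higher and 3.62% lower). With the block and pair 1, 2 or 3 left out, the fold changes were −0.60, −0.59 and −0.60 and the adjusted p in limma 1.09e-10, 0.488 and 0.329. Each of these fits held 2 pairs, and limma estimates the variances with help from all genes. The adjusted p moved widely at like fold changes, so its size is not a measure of strength here. The call was thus kept without pair 1 and lost without pair 2 or pair 3. Mrpl16 has 1 probe set, so no second probe set could be compared.

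The genes that neighbour Mrpl16 on chromosome 19 in the GRCm38.p6 annotation were chosen for comparison after its value was seen. On one side lie the oocyte-secreted protein genes Oosp1, Oosp2 and Oosp3 and the Ms4a cluster, and on the other Stx3, Patl1 and Osbp. Oosp1 had signals of 2586, 847 and 721 in controls and 807, 314 and 215 with NCOR1-LYN. It fell with the block (log2 fold change −1.46, adjusted p = 0.00625 in limma, against 0.963 without the block), and its change was −1.61, −1.27 and −1.49 in the 3 pairs. Oosp3, closer to Mrpl16, had a log2 fold change of 0.23 with pairwise changes of 0.09, 0.57 and 0.02. Oosp2 had pairwise changes of −1.28, −0.69 and −0.66 and an adjusted p of 0.11 with the block. Ms4a3, further out, had pairwise changes of 1.46, −0.41 and −0.33. Ms4a6d had −0.16, −0.67 and −0.33 and Ms4a2 had 0.04, −0.21 and −0.33, both at low group means of 90.7 to 147. Patl1, which encodes an mRNA decay factor, had a log2 fold change of −0.08, the lipid transfer gene Osbp one of 0.05, and Stx3 one of −0.14 at signals near the filter. Of the tested genes within 8 places of Mrpl16, Oosp1 was the other gene that passed with the block.

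**Figure D2:**
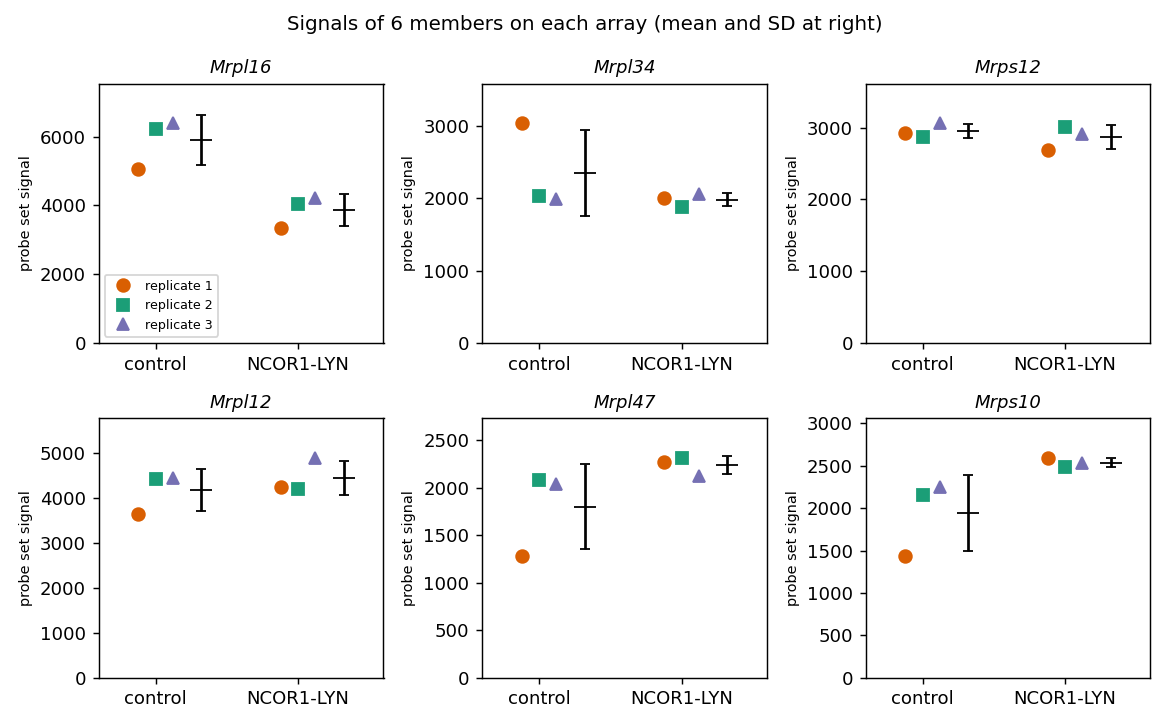
Probe set signals of 6 members on each array, with the axis from 0, control on the left and NCOR1-LYN on the right of each panel, and the mean and SD (n = 3) beside the points. The groups of Mrpl16 are apart (5070 to 6392 against 3346 to 4220), Mrps12 and Mrpl12 overlap, and the distance of Mrps10 and Mrpl47 between groups is largest in replicate 1.

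Among the large subunit genes with the highest fold changes, none passed the test. Mrpl47, the counterpart of a bacterial protein at the exit of the nascent chain tunnel, had signals of 1282, 2077 and 2040 in controls and 2269, 2311 and 2125 with NCOR1-LYN. The groups did not overlap, and control 1 stood far below the other arrays. Its log2 fold change was 0.33 ± 0.19 (SE), made up of 0.79, 0.15 and 0.06 in the 3 pairs. Mrpl1, whose bacterial counterpart forms the stalk on the exit side, had 499, 995 and 1101 in controls and 838, 1214 and 938 with NCOR1-LYN, with pairwise changes of 0.68, 0.27 and −0.22. Mrpl23, at the tunnel exit, had pairwise changes of 0.53, 0.05 and 0.08, with 4690 in NCOR1-LYN 1 against 2745 to 3232 in the other arrays. Mrpl2, next to the peptidyl transferase centre, went from 1706, 2176 and 2175 to 2488, 2261 and 2298 without overlap, and Mrpl21 had pairwise changes of 0.66, −0.05 and 0.01. In all 5 of these genes pair 1 gave the largest part of the fold change.

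At the lower end of the large subunit, Mrpl16 was followed at a distance by Mrpl34, a small protein with a bacterial homologue. Mrpl34 had 3037, 2025 and 1992 in controls and 1999, 1880 and 2052 with NCOR1-LYN. Control 1 alone was high, and its pairwise changes were −0.59, −0.10 and 0.04. Its second probe set, with a mean signal of 140, had a fold change of −0.20 with the drop in other pairs (0.00, −0.16 and −0.44). Mrpl20, Mrpl49 and Mrpl51 had fold changes of −0.07, −0.07 and −0.06 (SE 0.15, 0.13 and 0.19). Mrpl51 changed by −0.07, −0.07 and −0.05 in the pairs, the other member besides Mrpl16 that was lower in all 3. Mrpl33 varied most between pairs 2 and 3, with signals of 1152, 1995 and 1834 in controls and 1006, 2975 and 1301 with NCOR1-LYN.

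Small subunit genes ran from −0.11 to 0.40. Large subunit genes ran from −0.60 to 0.33, with the low end set by Mrpl16 and Mrpl34 next at −0.22. Mrps10, the homologue of a protein of the bacterial subunit's head, had 1433, 2160 and 2244 in controls and 2592, 2483 and 2528 with NCOR1-LYN. The groups did not overlap, and the NCOR1-LYN arrays lay close together. The log2 fold change was 0.40 ± 0.18 (SE), the highest of all members, with pairwise changes of 0.83, 0.20 and 0.17. Its adjusted p in limma was 0.999, and 0.374 when blocked by replicate. A second probe set of Mrps10 near the filter (mean signal 59.5) had 0.40 as well, from 0.12, 0.64 and 0.44. Mrps28 had 1210, 2521 and 2777 in controls and 2054, 3118 and 2573 with NCOR1-LYN, and both replicate 1 arrays were its lowest within their groups. Mrps16, with a homologue in the bacterial small subunit, went from 3936, 4712 and 4918 to 5493, 5285 and 5230 without overlap, a fold change of 0.24 ± 0.12. Mrps35, found in mitochondria alone, had 0.20 ± 0.14, with 1906 in NCOR1-LYN 1 against 1320 to 1514 elsewhere.

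The lowest small subunit genes were Mrps33 (−0.11 ± 0.13, SE), Mrps6 (−0.10 ± 0.17), Mrps11 (−0.06 ± 0.13), Mrps23 (−0.04 ± 0.22) and Mrps2 (−0.04 ± 0.16). Mrps6 went in different directions in the pairs, with 1471, 1530 and 1463 in controls and 1768, 1270 and 1185 with NCOR1-LYN. With pair 1 left out and the block kept, Mrps6 passed as lower (−0.27, adjusted p = 0.0346 in limma), in a fit of 2 pairs with 1140 calls among all genes. The groups of these 5 genes overlapped.

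Members were also named for known roles. In the decoding region of the small subunit, close to where tetracyclines bind in bacteria, Mrps12 had 2921, 2873 and 3061 in controls and 2691, 3004 and 2912 with NCOR1-LYN. The groups overlapped, and the fold change of −0.04 had a 95% interval from −0.30 to 0.21. Mrps5 and Mrps7, which line the path of the mRNA at its entry and exit, had 0.27 (interval −0.09 to 0.62) and 0.09 (−0.21 to 0.39). Mrps5 had 702 in control 1 and 1119 in NCOR1-LYN 1, while the other arrays held 792 to 907.

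In the stalk that recruits translation factors, Mrpl12 had 3638, 4425 and 4452 in controls and 4234, 4206 and 4888 with NCOR1-LYN, a fold change of 0.09 (interval −0.22 to 0.40). Mrpl10, which anchors it, had 0.02 (−0.25 to 0.30) and Mrpl11 0.20 (−0.09 to 0.50). Mrpl11 was higher in every pair (0.15, 0.33 and 0.12), yet its highest control, 2001, lay above its lowest NCOR1-LYN value, 1970. A second probe set of Mrpl11 (mean signal 1949) had −0.06, −0.00 and 0.19 in the pairs, and a dimmer probe set (mean signal 470) had 0.18, 0.26 and 0.41. Around the peptidyl transferase centre and the tunnel, Mrpl3, Mrpl4 and Mrpl22 had fold changes of 0.01, 0.05 and 0.09 with control 1 as the lowest array in each. Mrpl24 had 0.12, 0.08 and 0.12 in the pairs, and its replicate 1 arrays were the highest of their groups. Mrpl45, which ties the ribosome to the inner membrane, went from 2108, 2027 and 2267 to 2804, 2288 and 2276, with 2267 and 2276 as the closest values of the groups. Mrpl58, a peptidyl-tRNA hydrolase that rescues stalled ribosomes, had pairwise changes of 0.50, −0.13 and 0.09.

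Signals of the groups did not overlap in 10 members (13.2%, against 11.2% of all genes), 9 higher and 1 lower with NCOR1-LYN. For higher members this was 11.8% against 5.17% of all genes, and for lower ones 1.32% against 6.06%. The 9 were Mrps10, Mrpl47, Mrps16, Mrpl2, Mrps30, Mrpl45, Mrpl19, Mrpl52 and Mrpl37. Mrpl37 went from 757, 825 and 809 to 874, 884 and 885, a fold change of 0.13 ± 0.12 (SE). Mrpl52 went from 4694, 5318 and 5201 to 5657, 5641 and 5606, and Mrpl19 from 1778, 2124 and 2178 to 2230, 2302 and 2303. In 8 of the 9 control 1 was the lowest array, and in Mrpl45 it was control 2. Other probe sets did not always keep the groups apart. In a second probe set of Mrpl19 (mean signal 2138), NCOR1-LYN 3 had 1974 against 1660 to 2220 in controls. In Mrpl52 the groups overlapped in a probe set with a mean signal of 3384 and not in another at 3055. Over the pairs, 23 members were higher in all 3 (30.3%, against 15.9% of all genes) and 2 were lower in all 3 (2.63% against 18.9%).

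The large and the small subunit had like medians. The median log2 fold change was 0.05 over 47 Mrpl genes, 32 of them above 0, and 0.06 over 29 Mrps genes, 23 of them above 0. In pairs 1, 2 and 3 the medians were 0.08, 0.05 and 0.06 for Mrpl and 0.18, 0.06 and 0.06 for Mrps. The difference, Mrpl minus Mrps, was −0.01 with −0.10, −0.01 and −0.01 in the pairs (SD 0.05 over the pairs), so it was smaller than the spread between pairs. Members are no replicates, and this difference was not tested. Mrps30 and Mrps18a carry small subunit symbols but lie in the large subunit, and Mrps36 is no longer counted as a ribosomal protein. Mrps30 had 0.20 ± 0.13 (SE), Mrps18a 0.06 ± 0.12 and Mrps36 0.02 ± 0.12. With subunits by place the difference was −0.01 as well, and the pairs had −0.06, −0.02 and 0.02.

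Members listed with a counterpart in the bacterial ribosome (44) and the other ribosomal members (31) had medians of 0.08 and 0.06. The latter include Mrps18a and Mrps18b, relatives of the listed Mrps18c, so they are not all without bacterial homologues. Their difference was 0.02, with 0.03, 0.00 and 0.02 in the pairs. The largest changes in both directions, Mrpl16 and Mrps10, were of the former kind. Genes of the latter kind ran from −0.11 to 0.20, against −0.60 to 0.40.

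Members varied with the replicate number, and their median was low in replicate 1 of both groups, more so in control 1. Each gene's log2 signal was set against its own mean over the 6 arrays. The median of the 76 members was −0.19 in control 1 and −0.06 in NCOR1-LYN 1, against 0.03 to 0.08 in the other 4 arrays. Over all genes tested the medians ran from −0.02 to 0.04, with control 1 the highest. Control 1 was the lowest of the 6 arrays in 43 members (56.6%, against 22.8% of all genes), 28 Mrpl and 15 Mrps. NCOR1-LYN 1 was the lowest in 16 members and the highest in 19, against 2306 and 2293 of the 10916 genes. In 32 members (42.1% against 21.4%) both replicate 1 arrays lay below the other 4, as in Mrps24, which had 2286 and 2022 in replicate 1 against 3879 to 4462. A second probe set of Mrps24 (mean signal 2456) did not show this, with 2490 and 2447 in replicate 1 against 2309 to 2804. Both replicate 1 arrays lay above the other 4 in 8 members (10.5% against 26.8%), namely Mrpl20, Mrps2, Mrpl14, Mrpl10, Mrpl38, Mrpl24, Mrps18b and Mrpl23. These counts hold for the brightest probe set of each gene.

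**Figure D3:**
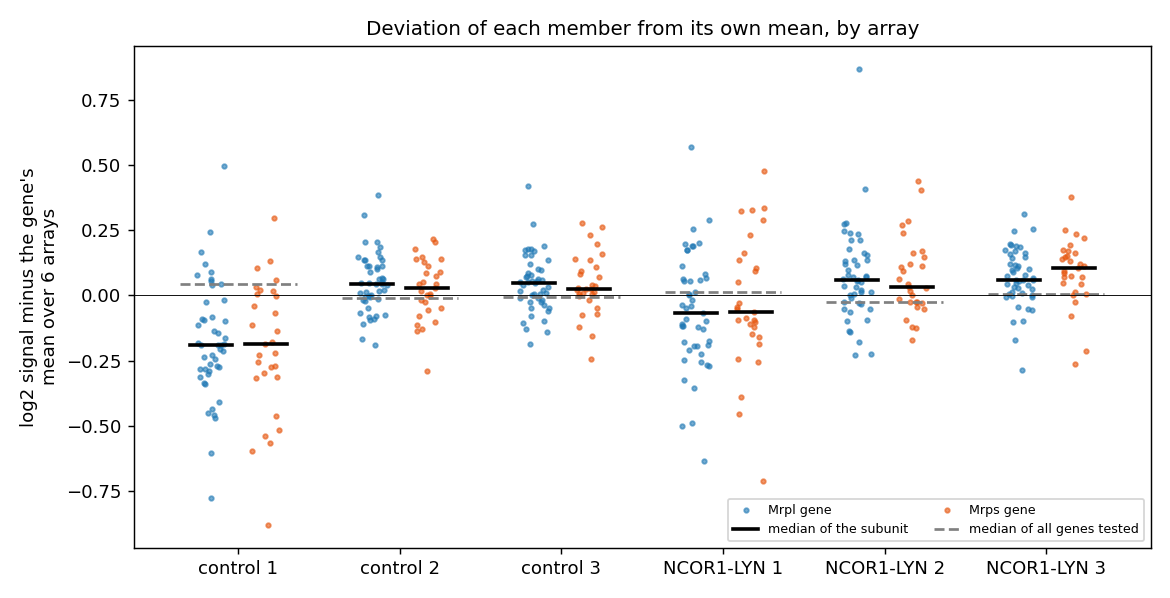
Log2 signal of each member minus its own mean over the 6 arrays, by array, for Mrpl (blue) and Mrps (orange), with subunit medians as black bars and the median of all genes tested as dashed lines. Both subunit medians lie at about −0.19 and −0.18 in control 1 and −0.07 and −0.06 in NCOR1-LYN 1, while the dashed lines lie between −0.02 and 0.04.

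The fold changes of the members moved with both replicate 1 arrays. The change in pair 1 was the largest of the 3 in size in 47 members (61.8%, against 49.5% of all genes), and 13 members changed by at least 0.5 in pair 1 against 2 in pair 2 and 1 in pair 3. The SD over members was 0.29, 0.16 and 0.14 in the pairs. The median over members was 0.12, 0.05 and 0.06 in the pairs, with 52, 49 and 52 of 76 above 0. Without control 1 the median fold change was −0.00 for Mrpl and 0.02 for Mrps, without NCOR1-LYN 1 it was 0.11 and 0.12, and without both it was 0.04 and 0.05. The labels name no batch, and what set replicate 1 apart was not tested.

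Probe sets of a member often differed. Of 36 members with several probe sets above the filter, 22 had the same sign in the brightest probe set and in the one that differed most from it, and 14 had opposite signs. With the mean over probe sets, Mrpl1 had 0.11 in place of 0.24, Mrpl21 0.09 in place of 0.21 and Mrpl19 0.10 in place of 0.17. The widest gaps were in Mrpl28 (−0.02 in the brightest and −0.37 in another with a mean signal of 1919), Mrpl38 (0.04 and −0.27, at a mean signal of 135) and Mrps25 (0.08 and −0.23, at 357). Probe sets of a gene read the same RNA on the same arrays and are not replicates.

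Genes that work with the mitochondrial ribosome were described by lists. In limma 0 genes of any of these lists passed, neither in the fit without the block (0.0824% of all genes) nor in the blocked one (0.824%). Of the 4 measured ribosomal proteins with other symbols, Gadd45gip1, which sits in the large subunit, had signals of 1277 ± 71.4 and 1059 ± 59.6 (SD, n = 3) without overlap, a fold change of −0.26 ± 0.12 (SE), which was −0.06 with the mean over its probe sets. Chchd1, Dap3 and Ptcd3 of the small subunit had 0.20, 0.13 and −0.00. The 14 translation factor genes had a median of 0.03, with the elongation factor gene Tufm at −0.08, Gfm1 at −0.00 and Guf1 at 0.33 ± 0.16. The 25 assembly genes had a median of 0.06, and Eral1, a GTPase that binds the small subunit's RNA, had 0.26 ± 0.13 with groups that did not overlap, and 0.15 with the mean over its probe sets. The 16 mitochondrial tRNA synthetase genes had a median of 0.00, with Sars2 at 0.38 ± 0.18. The 10 genes of mitochondrial DNA and transcription had a median of 0.06, with Tfb2m at −0.20 ± 0.13.

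Of 11 regulators of mitochondrial biogenesis the median was 0.08. Nrf1, Gabpa and Yy1, whose letters were searched in the promoters, had 0.20 ± 0.17, −0.12 ± 0.13 and −0.02 ± 0.19 (SE). Myc had 5912 ± 605 and 8046 ± 1172 (SD, n = 3), a fold change of 0.44 with pairwise values of 0.49, 0.53 and 0.29. It passed without both replicate 1 arrays (0.41, adjusted p = 0.009 in limma) and did not in the fits of all 6 arrays (adjusted p = 0.807, and 0.119 with the block).

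The 16 genes of the mitochondrial stress response had a median of 0.18, with 0.88, −0.07 and −0.08 in the pairs. Mthfd2, an enzyme of mitochondrial folate metabolism and a target of ATF4, had pairwise changes of 1.73, 0.14 and 0.22, and Trib3 of 2.09, −0.00 and −0.29. Control 1 was the lowest of the 6 arrays in 11 of these 16 genes, and the list's median deviation there was −0.35, against 0.29 in NCOR1-LYN 1. Their part in the values of the ribosomal genes was not tested.

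The 76 nuclear genes of oxidative phosphorylation, most of whose complexes also contain products of mitochondrial ribosomes, had a median of 0.04, with 0.08, −0.02 and 0.09 in the pairs. They too were low in replicate 1, at −0.24 in control 1 and −0.17 in NCOR1-LYN 1, and in 47 of 76 (61.8%) both replicate 1 arrays lay below the other 4. Ndufb1, a small subunit of complex I, went from 1475 ± 251 to 872 ± 56.8 (SD, n = 3), a fold change of −0.71 ± 0.15 (SE) with an adjusted p of 0.073 with the block in limma, and it passed without both replicate 1 arrays (−0.55, adjusted p = 0.00404). The 42 cytosolic ribosomal protein genes had a median of −0.04, with −0.00, −0.17 and 0.04 in the pairs. Control 1 was lowest in 4 of them, and both replicate 1 arrays lay above the other 4 in 23. Their median mean signal of 31484 is near the top of the range, where differences can be compressed. Rpl39 had the largest change among them, from 299 ± 83.3 to 111 ± 68.3 at low signal. Differences between these lists and the mitochondrial ribosomal genes were not tested.

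**Figure D4:**
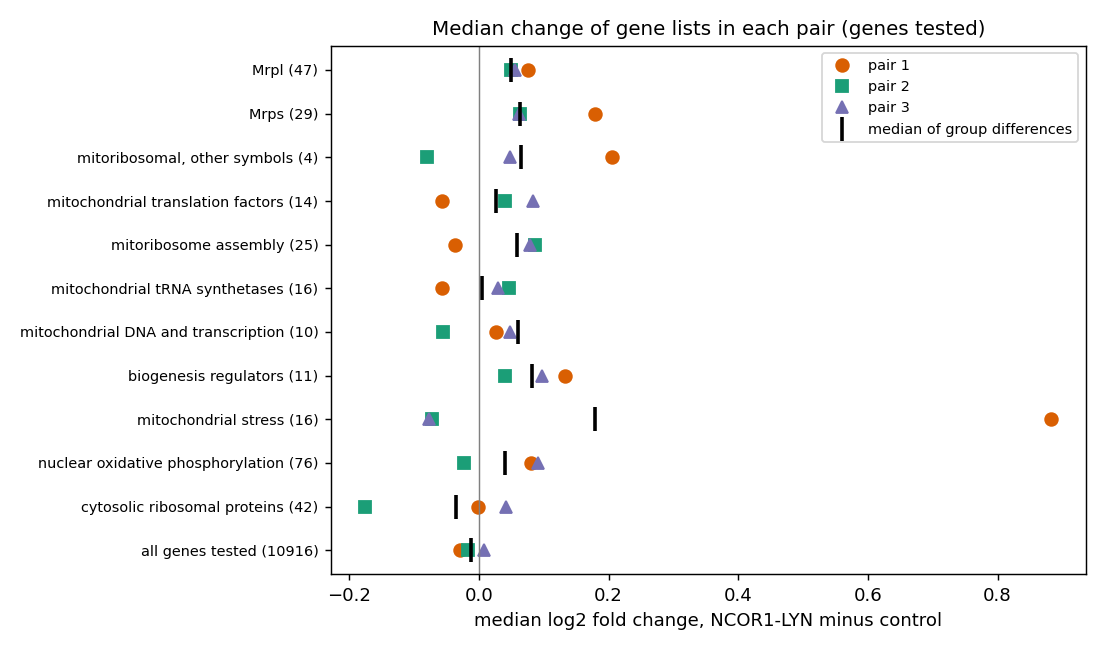
Median log2 fold change of each gene list (number of genes tested in parentheses) in each same-numbered pair (coloured points) and over the groups (black ticks). Mrpl and Mrps lie between 0.05 and 0.18 in every pair, and the mitochondrial stress list stands apart in pair 1 at 0.88.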

How the data were processed

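Each of 6 samples was measured on 1 array. The deposited intensity values are probe set signals on a linear scale. Per the submitters' processing notes the authors used MAS5 (version not given in the sources used here). MAS5 corrects for background and mismatch probes, so dim signals are noisy. On each array the mean without the top and bottom 2% of probe sets is 500, the scaling target.

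Of 45101 probe sets, 34945 had exactly 1 symbol in the platform annotation, 156 of them of the 76 members, whose symbols all matched RefSeq by Entrez identifier. Signals were used as log2(signal + 64) without further scaling, which understates changes of dim genes. Each gene was read from its brightest probe set, and genes below the 40th percentile (a signal of about 47) were left out. Limma (3.58.1, R 4.3.3; lmFit, eBayes with trend) was run on all 6 arrays, two-sided, with Benjamini-Hochberg adjustment over 10916 genes. Residual degrees of freedom were 4, or 2 with the replicate block, and fewer in fits that left arrays out. The scripts were tested on simulated data.

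Replicate numbers were taken to pair the arrays, since deviations from group means of same-numbered arrays correlated at 0.618, 0.411 and 0.439 across genes. Control 3 correlated more with NCOR1-LYN 2 (0.485), so the check bears on replicate 1 rather than on the pairing of replicates 2 and 3. No label ties replicate numbers to a day or batch.

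The members and lists were chosen with earlier results of these data known. Members named were those past the threshold with or without the block, the 5 highest and 5 lowest of each subunit, up to 10 without overlap, 6 by role, and the 3 with the widest gap between probe sets. For each list the gene with the largest change was named. Other genes, among them Mrpl3, Mrpl4, Mrpl14, Mrpl22, Mrpl24, Mrpl33, Mrpl58, Mrps18a, Mrps18b, Mrps24, Mrps36, Trib3 and the neighbours of Mrpl16, were chosen after their values were seen. Other spellings of the promoter motifs had been tried. Alternatives covered the pseudocount, filter, scaling, probe set, arrays used, block and subunit.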

Additional observations from a re-analysis of the deposited data

How the results depend on the processing

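Over all genes, 9 genes passed in limma, 90 with the replicate block, 1 without the filter, 1 with it at the 60th percentile and 740 without both replicate 1 arrays. Leaving out 1 array gave 0 to 15, with 0 without control 2, control 3, NCOR1-LYN 2 or NCOR1-LYN 3 and 15 without control 1. Of the members 0 passed in all these fits except 1 (Mrpl16) with the block and 1 (Mrpl16) without both replicate 1 arrays. With the block and 1 pair left out, which was added after the data were seen, 1140, 0 and 21 genes passed without pairs 1, 2 and 3, among them 2, 0 and 0 members. The block changed no other call of a named member. The median fold change moved by more than the spread between pairs for Mrpl alone, with −0.0031 to 0.1123 when 1 array was left out. For Mrps it ran from 0.0223 to 0.1297 and for the difference of subunits from −0.0471 to −0.0046. Quantile normalization gave medians of 0.0614 and 0.0838. Changes of sign were looked for in 55 genes, which did not include all members. Among them, fold changes changed sign without both replicate 1 arrays (Mrpl21 −0.018, Mrpl28 0.088, Mrpl3 −0.14, Mrpl33 0.043, Mrpl38 −0.0017, Mrpl4 −0.032, Mrpl58 −0.018, Mrps14 −0.11, Mrps18a −0.014, Mrps2 0.017, Mrps23 0.027) and with the mean over probe sets (Mrpl33 0.0056, Mrpl38 −0.074, Mrps23 0.040, Mrps25 −0.0056). With 1 array left out, the range crossed 0 in these of the members checked, while other members were not checked: Mrpl1 −0.082 to 0.44, Mrpl10 −0.0091 to 0.090, Mrpl12 −0.0020 to 0.14, Mrpl20 −0.17 to 0.027, Mrpl22 −0.012 to 0.14, Mrpl23 −0.0093 to 0.34, Mrpl28 −0.11 to 0.10, Mrpl3 −0.14 to 0.087, Mrpl33 −0.48 to 0.28, Mrpl38 −0.045 to 0.10, Mrpl49 −0.11 to 0.012, Mrpl51 −0.22 to 0.097, Mrpl58 −0.025 to 0.27, Mrps12 −0.074 to 0.0032, Mrps14 −0.12 to 0.087, Mrps18b −0.053 to 0.29, Mrps2 −0.13 to 0.096, Mrps23 −0.19 to 0.17, Mrps24 −0.21 to 0.42, Mrps25 −0.18 to 0.29, Mrps28 −0.054 to 0.52, Mrps36 −0.060 to 0.083, Mrps6 −0.27 to 0.011. Mrpl16 stayed between −0.70 and −0.50. Signals of members lay at 293 to 6490 and so clear of the filter.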
